A study of Homo sapiens with 14 samples.

Results

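The double-stranded RNA sensors and the oligoadenylate synthetases are described here as 9 genes, taken by symbol from the deposited RPKM table. They are EIF2AK2, DDX58, IFIH1, DHX58, MAVS, TLR3, OAS1, OAS2 and OAS3, and all 9 were found among the table's 21574 rows. The series holds 14 libraries of cells labelled HepG2, a human hepatoma line, that received a scrambled siRNA (control) or an siRNA against ADAR1 (KD). The labels call this transfection stable. PARS-seq, in which S1 nuclease cuts single-stranded and RNase V1 double-stranded RNA, has 2 libraries per enzyme and condition, RNA-seq has 1 library per condition and Ribo-seq, which sequences ribosome-protected fragments, has 2. The study gives its PARS-seq and Ribo-seq libraries as biological replicates, and each PARS-seq RPKM value is the authors' mean over both enzymes within a replicate.

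Double-stranded RNA is read in the cytoplasm as a sign of virus infection. RIG-I (encoded by DDX58) and MDA5 (IFIH1) bind it and signal through the mitochondrial adaptor MAVS to induce interferon, while LGP2 (DHX58) lacks the signalling domains and tunes the other two. TLR3 detects the same ligand in endosomes. PKR (EIF2AK2) halts translation by phosphorylating eIF2α, and the synthetases OAS1, OAS2 and OAS3 make 2-5A, a second messenger. ADAR1 edits adenosine to inosine in such RNA and restrains sensing of a cell's own transcripts. Most of the 9 genes are themselves interferon-stimulated.

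The hepatocyte genes that define the labelled line were found at trace level at most. Of 10 markers fixed for it, 9 matched a row (ALB, AFP, APOA1, APOB, TTR, SERPINA1, TF, FGB and AHSG), and each was under 0.1 RPKM in every column, with a highest value of 0.0821. Their summed level was 0.00 to 0.0954 RPKM over the control columns and 0.00 to 0.126 RPKM over the KD columns. HNF4A, the 10th marker, shares a row with a microRNA gene, which held 0.00 to 0.803 RPKM. Of 10 markers of other cell types, CD68 reached 22.7 RPKM, COL1A1 54.7 and CD14 1.02, while the other 7 stayed under 1 RPKM. Of these, PTPRC, LYZ, PECAM1 and VWF were under 0.1 in every column, and COL1A2 was at most 0.123. The 10 summed to 16.6 to 78.5 RPKM in the control columns and 13.2 to 56.9 in the KD columns. CD68, a macrophage marker also found in other cells, fell in PARS-seq from 5.03 and 4.02 to 1.48 and 1.71 RPKM (log2 change -1.09, SE 0.15, adjusted p = 0.0039, limma) and was at 22.7 and 15.6 in RNA-seq. The cells are therefore named by their label only, and what this means for the results was not tested.

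ADAR, the targeted gene, checks the condition labels. It fell in PARS-seq from the authors' means of 40.7 and 46.8 RPKM to 15.1 and 15.1, a log2 change of -1.47 (SE 0.17, adjusted p = 0.00200, limma), a call that was lost with the spread shared with Ribo-seq (adjusted p = 0.771). In RNA-seq it was at 54.8 RPKM in the control and 15.4 in the KD library. In Ribo-seq the pair of libraries numbered 1 held 43.6 and 8.73 RPKM, while the pair numbered 2 held 55.5 and 44.0, which is 20.6% lower after KD. ADAR was not called in Ribo-seq (log2 change -1.26, SE 0.82, adjusted p = 1.00, limma) or over the 3 assays (-1.45, SE 0.36, adjusted p = 0.154). With a replicate block, which treats same-numbered columns as pairs though the labels name no pairing, it was called in both (adjusted p = 0.0238 and 0.0115, limma). Leaving out 1 Ribo-seq library moved its Ribo-seq change to between -2.37 and -0.16. Over the 3 assays ADAR was called without Ribo-seq KD replicate 2 (-1.82, adjusted p = 0.0332, limma) and without both Ribo-seq libraries numbered 2 (-1.73, adjusted p = 0.00137). The targeted gene thus gives little check of the label of the KD library numbered 2 in Ribo-seq, which is written below as labelled, and whether that library was silenced was not tested. Each Ribo-seq result is given for both pairs.

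The table's values allow the reads behind RNA-seq and Ribo-seq to be recovered, since RPKM times transcript length is a whole multiple of 1 read's worth. For all 9 genes and ADAR a single length gave whole reads in all 6 libraries within 0.03 of a read. RNA-seq held 40729941 reads in the control and 30209865 in the KD library, whereas the 4 Ribo-seq libraries held 995682 to 3322918. A member's Ribo-seq level therefore rests on between 0 and 303 reads. Intervals given below are exact 95% intervals of a count and cover counting error only. As in any bulk measurement, fewer expressing cells and less RNA per cell cannot be told apart.

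Of the 7 members with a promoter in the RefSeq table (build GRCh38.p14), 6 carry a short sequence of the kind bound by interferon regulatory factors, and these are shown because the members are commonly grouped as interferon-stimulated. The window searched, on both strands, runs from 250 bases before to 50 after the start site. GAAA followed after any 2 bases by GAAA, the core of an interferon-stimulated response element, occurred in 4 of 7 members against 3.57% of all 35116 promoters. The shorter AA followed after any 2 bases by GAAA, which lies within every match of the longer motif, occurred in 6 of 7 against 22.8%. MAVS held neither, and OAS2 and DHX58 had no entry. A match is a description and no evidence of binding. One match per gene is shown, capitals mark the motif, and each line runs 5′ to 3′ on the strand that matched.
EIF2AK2, chr2:37156969-37156994, minus strand, longer motif: tccaagggGAAAACGAAActgagaac
IFIH1, chr2:162318688-162318713, minus strand, longer motif: agagaatcGAAACAGAAAccaaagtc
TLR3, chr4:186069144-186069169, minus strand, longer motif: gcactctcGAAAGTGAAAgtaaagct
OAS3, chr12:112938454-112938479, plus strand, longer motif: ccgggcggGAAAACGAAAccagaaat
OAS1, chr12:112906937-112906962, plus strand, shorter motif: cttctgaggAAACGAAAccaacagca
DDX58, chr9:32526382-32526407, minus strand, shorter motif: tgcggagggAAACGAAActagcccga
The match shown for TLR3 reads against the gene, and IFIH1 and DDX58 also hold matches on the strand opposite to theirs.

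The level of the 9 genes spanned from undetected to above 90% of the table's rows, and their order depended on the assay. In the control columns of PARS-seq EIF2AK2 led with 44.7 and 44.4 RPKM, followed by IFIH1 at 11.03 and 9.62 and OAS1 at 7.86 and 7.76. OAS3 (6.004 and 7.73) and MAVS (4.70 and 7.11) overlapped each other. DDX58 (2.07 and 1.91) and DHX58 (1.46 and 1.93) overlapped too, and TLR3 (0.633 and 0.386) and OAS2 (0.0691 and 0.0901) were under 1 RPKM.

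In RNA-seq the synthetases led instead. The control library held 23.4 RPKM of OAS1 and 14.6 of OAS3, then 10.1 of MAVS, 3.74 of IFIH1 and 2.51 of EIF2AK2. DHX58 was at 1.22 RPKM, DDX58 at 0.785, OAS2 at 0.287 and TLR3 at 0.0323. The counting intervals of neighbours in this order did not overlap, but there was a single library.

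In Ribo-seq the 2 control libraries placed the members differently. The library numbered 1 held OAS1 at 25.8 RPKM, IFIH1 at 12.04, OAS3 at 11.4 and EIF2AK2 at 10.2, and the counting intervals of the last 3 overlapped. The library numbered 2 held MAVS at 7.75, EIF2AK2 at 6.09, OAS1 at 5.14 and OAS3 at 3.91. IFIH1 was 6.52-fold higher in number 1 than in number 2, a ratio exceeded by 87 of 9712 genes, and OAS1 was 5.01-fold higher. MAVS was 3.13-fold lower in number 1, where the median log2 ratio of all genes was 0.35.

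**Figure D1:**
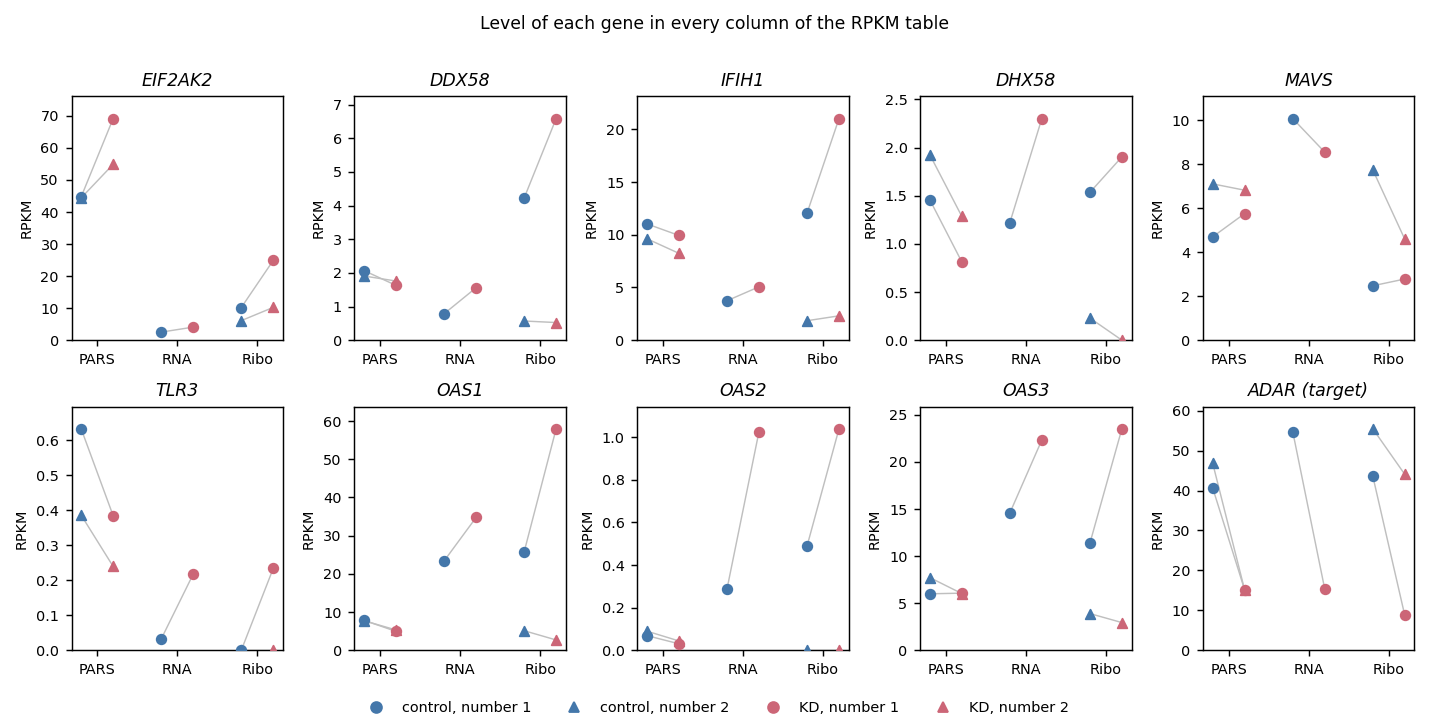
RPKM of each of the 9 genes and of ADAR (vertical axes, linear, from 0) in the 10 columns of the table, by assay, with control in blue, KD in red, replicate number 1 as circles and number 2 as triangles, and a grey line joining columns of 1 number. Of the 9, EIF2AK2 is highest in PARS-seq and OAS1 in RNA-seq and Ribo-seq number 1, and apart from TLR3, MAVS and ADAR each gene is lower in the Ribo-seq pair numbered 2 than in number 1.

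PKR was the only member whose KD columns lay above the control columns in both PARS-seq and Ribo-seq. EIF2AK2 (chr2:37326353-37384665 in GRCh37, minus strand) was at 69.2 and 54.9 RPKM in the KD columns of PARS-seq against 44.7 and 44.4 in the controls, a log2 change of 0.46 (SE 0.18, adjusted p = 0.125, limma). With the replicate block it passed (adjusted p = 0.00234, limma), where 5656 genes were called. Groups that did not overlap, with KD higher, were found for 33.3% of the 11153 genes tested in PARS-seq, so that such a gap was common in this assay. RNA-seq gave 2.51 RPKM in the control library and 4.08 in the KD library, from 445 and 535 reads, a ratio of 1.62 (95% counting interval 1.43 to 1.84).

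Ribo-seq pointed the same way for PKR in both pairs. The pair numbered 1 held 10.2 and 24.9 RPKM, from 44 and 152 reads (ratio 2.45, 1.74 to 3.51), and the pair numbered 2 held 6.09 and 10.2, from 88 and 107 reads (ratio 1.68, 1.26 to 2.25). The gap between the groups was narrow, with 10.17 in control replicate 1 and 10.24 in KD replicate 2. The log2 change in Ribo-seq was 0.94 (SE 0.57, adjusted p = 1.00, limma), where 10.7% of 10882 genes had KD values above both controls, 7.12% had them below both, and 0.00% were called. Over the 3 assays together the change was 0.67 (SE 0.25, adjusted p = 0.347, limma), which did not pass the threshold, and 0.0176% of 11370 genes did (0.0088% with KD higher and 0.0088% with KD lower). With the replicate block it passed (adjusted p = 0.0277, limma), where 819 genes were called. When both Ribo-seq libraries numbered 2 were left out, a choice made after seeing their ADAR values, the fit without the block called 1712 genes in place of 2. EIF2AK2 was among them with a log2 change of 0.67 (adjusted p = 0.0237, limma).

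PKR also stood out in how far its level differed between assays. Its mean control level was 17.7-fold higher in PARS-seq than in RNA-seq, a ratio exceeded by 99 of 10099 genes, whereas the PARS-seq level of OAS1 was 0.334 times and that of OAS3 0.471 times the RNA-seq level. IFIH1 was 2.76-fold higher in PARS-seq, above 82.2% of genes. The median gene differed by -0.07 on the log2 scale.

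EIF2AK2 is the only member whose transcript could be named in the read-start tables, through the identifier uc010fac.3 of 4127 bases. It held 11679 to 21906 S1 read starts and 12284 to 23801 V1 read starts per library. Most of them fell in 1 stretch. Bases 1216 to 1615, counted from 1 at the transcript's 5′ end, are the densest window of 400 bases, and they held 82.1% to 88.6% of the read starts in each of the 8 libraries, where an even spread would give 9.69%. Among 2564 transcripts of at least 2000 bases with at least 1000 read starts in every library, the mean share in the densest such window was 85.7% for EIF2AK2 against a median of 44.7%, and 90 transcripts exceeded it. Whether this stretch accounts for the high PARS-seq level was not tested. Its place among exons is not given here, since no annotated transcript used here has this length.

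**Figure D2:**
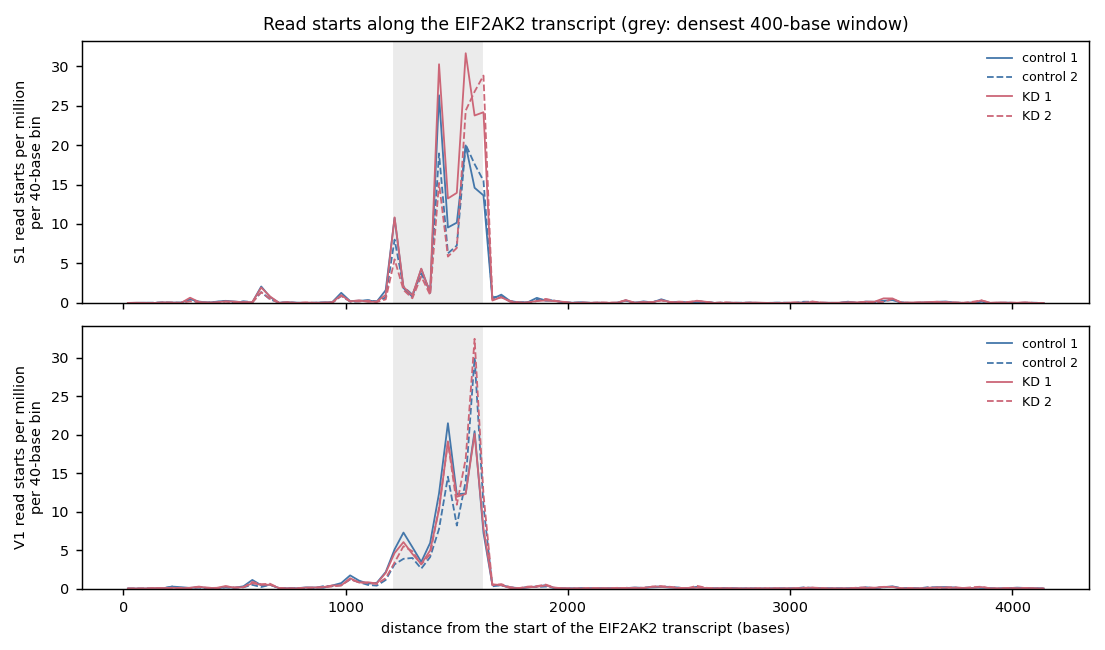
S1 (top) and V1 (bottom) read starts per 1000000 of the library, summed in 40-base bins, along the EIF2AK2 transcript (horizontal axis, bases from its start) in 2 control (blue) and 2 KD (red) libraries per enzyme, number 1 solid and number 2 dashed. All 8 libraries rise in the grey window of bases 1216 to 1615, with different peaks for S1 and V1.

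S1 and V1 read starts peaked at different bases of this stretch. S1 read starts were most numerous at base 1422 in 3 of 4 libraries, where 5.39% to 7.33% of the transcript's S1 read starts lay, and at base 1614 (6.88%) in S1 KD replicate 2. V1 read starts peaked at base 1573 in all 4 libraries, with 2.86% to 4.41% of the total, while base 1422 held at most 0.084% of V1 read starts. Over the 4127 bases, Pearson's r of log2(read starts + 1) was 0.868 to 0.885 between S1 libraries, 0.852 to 0.874 between V1 libraries and 0.547 to 0.577 between the enzymes. These correlations are across bases, which are not independent.

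Scaled to the library totals, the S1 read starts of EIF2AK2 were higher after KD inside the stretch, with ratios near 1 outside it. On this scale the median transcript had a log2 change of -0.36, so that a ratio of 1 lies above that of the median transcript. Per 1000000 read starts of the library, S1 values inside were 109 and 98.5 in the controls and 151 and 116 in the KD libraries, ratios of 1.39 and 1.18. Outside they were 20.1 and 16.3 against 19.5 and 16.3, ratios of 0.97 and 1.00. On the same scale V1 showed no common direction, with 107 and 97.4 inside the stretch in the controls and 98.8 and 118 after KD. The median transcript had a log2 change of -0.34 in V1, so the direction depends on the scaling.

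Summed over the transcript, the log2 change was 0.30 for S1 (SE 0.26, adjusted p = 0.425) and 0.08 for V1 (SE 0.36, adjusted p = 0.936) by limma, where 20.1% of 4721 and 8.06% of 4716 transcripts were called. For S1, 1.48% were called with KD higher and 18.6% with KD lower, and for V1 0.339% and 7.72%. In each library 1 transcript took 26.03% to 59.35% of the read starts. With TMM scaling the S1 change of EIF2AK2 was 0.66 (adjusted p = 0.0471), the median transcript moved from -0.36 to 0.00, and the share of S1 calls with KD higher went from 7.38% to 41.1%. For V1 the change of EIF2AK2 was 0.42 with TMM scaling (adjusted p = 0.135) and 0.39 without the most covered transcript (adjusted p = 0.162), neither past the threshold, and the share of calls with KD higher went from 4.21% to 34.8%.

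Whether the share of EIF2AK2 bases with more V1 than S1 read starts separated the conditions depended on the scaling, on the depth and on the bases counted. Each base was classed by Fisher's exact test (two-sided, unadjusted p under 0.05), which gave 222 bases with more V1 and 143 with more S1 in control replicate 1 (60.8% V1) and 197 and 135 in control replicate 2 (59.3%). KD replicate 1 had 258 and 233 (52.5%) and KD replicate 2 had 210 and 144 (59.3%). Here the KD replicates differed from each other by more than KD replicate 2 differed from the controls. With totals that leave out the most covered transcript, the controls were at 66.6% and 64.8% and the KD replicates at 58.0% and 60.6%, lower without overlap. Outside the densest window, an alternative chosen after seeing the data, they were at 57.5% and 58.3% against 50.9% and 52.5%, also without overlap. Against the transcript's own totals they overlapped, with 60.6% and 59.2% against 62.3% and 57.6%. KD replicate 1 held the most read starts on the transcript (21906 S1 and 23801 V1). After thinning each enzyme's libraries to the smallest number of read starts, the conditions overlapped too, with 57.2% and 53.6% against 49.4% and 65.3%. The share was not computed for other transcripts here, so how common such a gap was is not known. Of 304 bases called in both libraries numbered 1, 303 fell on the same side in control and KD, and of 251 called in both numbered 2, all 251 did.

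The RIG-I-like receptors were higher after KD in RNA-seq but not in PARS-seq. MDA5 (IFIH1, chr2:163123584-163175194, minus strand) was at 3.74 RPKM in the control and 5.06 in the KD library of RNA-seq (ratio 1.35, counting interval 1.20 to 1.53). The Ribo-seq pair numbered 1 held 12.04 and 21.02 RPKM, from 41 and 101 reads (ratio 1.75, 1.20 to 2.58). The pair numbered 2 held 1.85 and 2.31, from 21 and 19 reads, and its interval of 0.636 to 2.44 includes no change. In PARS-seq the values were 11.03 and 9.62 against 9.93 and 8.24, which overlap (log2 change -0.17, SE 0.17, adjusted p = 0.522, limma).

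RIG-I (DDX58, chr9:32455300-32526206, minus strand) had the larger RNA-seq ratio. It was at 0.785 RPKM in the control and 1.56 in the KD library, from 152 and 224 reads (ratio 1.99, 1.61 to 2.46). The Ribo-seq pairs held 4.22 and 6.59 RPKM (20 and 44 reads) and 0.569 and 0.525 RPKM (9 and 6 reads), and both intervals include a ratio of 1. In PARS-seq the controls were at 2.07 and 1.91 and the KD columns at 1.63 and 1.76, lower without overlap (log2 change -0.15, SE 0.13, adjusted p = 0.447, limma). Groups with KD lower and no overlap made up 27.1% of all genes tested in PARS-seq.

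LGP2 (DHX58, chr17:40253422-40264732, minus strand) differed in direction between the assays. RNA-seq held 1.22 RPKM in the control and 2.30 in the KD library, from 130 and 182 reads (ratio 1.89, 1.5 to 2.38). PARS-seq held 1.46 and 1.93 in the controls and 0.813 and 1.29 after KD, also without overlap (log2 change -0.40, SE 0.16, adjusted p = 0.122, limma). Without control replicate 1 the change was -0.52. With the replicate block LGP2 passed (adjusted p = 8.6e-05, limma), where 5656 genes were called. Ribo-seq had 4 and 7 reads in the pair numbered 1 and 2 and 0 in the pair numbered 2, so that no change was detectable at this depth. The 0 reads of KD replicate 2 have a 95% upper bound of 0.586 RPKM.

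MAVS (chr20:3827446-3856770, plus strand), the adaptor of these receptors, was the only member with a lower level in the KD library of RNA-seq. It was at 10.1 RPKM in the control and 8.55 after KD, from 4834 and 3041 reads (ratio 0.848, 0.810 to 0.888). The Ribo-seq pair numbered 1 held 2.47 and 2.78 RPKM (ratio 1.12, 0.692 to 1.86), and the pair numbered 2 held 7.75 and 4.59, from 303 and 130 reads (ratio 0.593, 0.479 to 0.730). In PARS-seq the values overlapped, with 4.70 and 7.11 in the controls and 5.76 and 6.82 after KD (log2 change 0.10, SE 0.20, adjusted p = 0.772, limma).

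TLR3 (chr4:186990065-187009227, plus strand), the endosomal receptor, was scarce in every column. RNA-seq held 4 reads in the control and 20 in the KD library, or 0.0323 and 0.218 RPKM (ratio 6.74, 2.26 to 27.1). Ribo-seq held 1 read in KD replicate 1 and 0 in the other 3 libraries, whose 95% upper bounds were 0.365 to 1.22 RPKM. PARS-seq held 0.633 and 0.386 in the controls and 0.384 and 0.239 after KD, a lower pair of values without overlap. With a mean under 1 RPKM it entered no test.

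The 3 synthetase genes lie side by side on chromosome 12 (OAS1 at 113343661-113371024, OAS3 at 113375856-113414265 and OAS2 at 113416200-113449528, GRCh37, plus strand). All 3 were higher in the KD library of RNA-seq. OAS1 was at 23.4 RPKM in the control and 34.8 after KD (ratio 1.49, counting interval 1.40 to 1.58), and OAS3 was at 14.6 and 22.3 (ratio 1.53, 1.47 to 1.60). OAS2 was at 0.287 and 1.02 RPKM, from 72 and 191 reads (ratio 3.58, 2.71 to 4.76), whose interval lies above those of the other two.

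In Ribo-seq OAS1 and OAS3 were higher after KD in the pair numbered 1, whereas their intervals in the pair numbered 2 included a ratio of 1. The pair numbered 1 held 25.8 and 58.0 RPKM of OAS1 (51 and 162 reads, ratio 2.25, 1.63 to 3.15). It held 11.4 and 23.5 RPKM of OAS3 (75 and 219 reads, ratio 2.07, 1.59 to 2.73), and 3 and 9 reads of OAS2 (ratio 2.13, 0.531 to 12.2). The pair numbered 2 held 5.14 and 2.72 RPKM of OAS1 (34 and 13 reads, ratio 0.528, 0.256 to 1.03). There OAS3 was at 3.91 and 2.95 RPKM (86 and 47 reads, ratio 0.755, 0.518 to 1.09), and OAS2 had 0 reads in both libraries. The groups therefore overlapped for each of them.

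In PARS-seq OAS1 was the only member called, and it fell. It was at 7.86 and 7.76 RPKM in the controls and 4.97 and 5.33 after KD, a log2 change of -0.52 (SE 0.15, adjusted p = 0.0478, limma), where 15.5% of genes were called, 7.43% with KD lower and 8.06% with KD higher. CD68, the only called gene among the markers of other cell types, fell in the same comparison, and its part in this result was not tested. Without a filter on low values the share of calls with KD higher went from 52.0% to 40.5%. This call was lost without any 1 of the 4 columns (log2 change between -0.56 and -0.48), with rescaled columns (adjusted p = 0.0639), without a filter on low values (adjusted p = 0.106) and with the spread shared with Ribo-seq (adjusted p = 0.998). OAS3 overlapped between the conditions (6.004 and 7.73 against 6.07 and 6.03, log2 change -0.15, SE 0.16, adjusted p = 0.572, limma). OAS2 was at 0.0691 and 0.0901 RPKM against 0.0308 and 0.0442, lower without overlap but far under the minimum for a test.

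**Figure D3:**
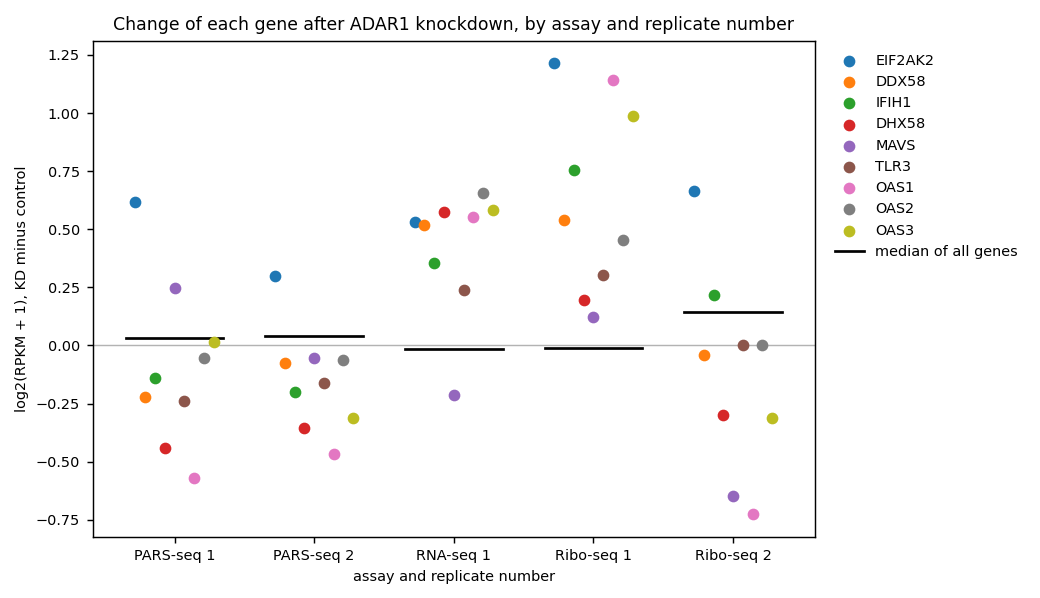
Difference in log2(RPKM + 1), KD minus control (vertical axis), for the 9 genes as coloured points in each pair of columns with the same replicate number (horizontal axis), with the median of 11370 genes as a black line. EIF2AK2 is above 0 in all 5 pairs, and 8 of 9 genes are above 0 in RNA-seq, beside 46.9% of the 11370 genes. OAS1 and DHX58 lie below 0 in both PARS-seq pairs and in the Ribo-seq pair numbered 2.

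Across the 9 genes the direction after KD followed the assay and, for Ribo-seq, the pair. KD values were above control for 8 of 9 genes in RNA-seq, for 9 of 9 in the Ribo-seq pair numbered 1, for 2 of 9 in the pair numbered 2, and for 3 and 1 of 9 in the PARS-seq pairs. Of 11370 genes, 46.9%, 46.7%, 60.5%, 53.1% and 54.8% were above control, in that order. In the Ribo-seq pair numbered 2, TLR3 and OAS2 had 0 reads in both libraries and are counted as not above. In the pair numbered 1, TLR3 rests on 1 read against 0 and OAS2 on 9 against 3. The median change of the 9 on the log2(RPKM + 1) scale was 0.53 in RNA-seq, 0.54 and -0.04 in Ribo-seq and -0.14 and -0.16 in PARS-seq. Over 11370 genes the medians were -0.01, -0.01 and 0.14, 0.03 and 0.04, in that order. The 2 Ribo-seq pairs share no library with each other or with the other assays.

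By read counts, the interval of the RNA-seq ratio lay above 1 for 8 members and below 1 for MAVS. Of 11198 genes with a mean of at least 1 RPKM and recovered reads, 32.8% had such an interval above 1 and 36.6% below 1, so that an interval without 1 was common at this depth. In the Ribo-seq pair numbered 1 it lay above 1 for 4 members (EIF2AK2, IFIH1, OAS1 and OAS3) and below 1 for none, beside 7.34% and 9.38% of 11049 genes. In the pair numbered 2 it lay above 1 for EIF2AK2 and below 1 for MAVS, beside 28.2% and 13.2% of 11243 genes, and it included 1 or could not be given for the other 7. These intervals compare single libraries and not conditions. On the log2(RPKM + 1) scale, none of the 7 members tested passed 1.5-fold in RNA-seq, where 9.13% of 10946 genes did, 4.47% with KD higher and 4.66% with KD lower. With rescaled columns the share past the bound with KD higher went from 48.9% to 62.9%, and OAS1 and OAS3 passed. That scale understates low genes, and with a pseudocount of 0.1 RPKM EIF2AK2, DDX58, DHX58 and OAS3 passed.

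**Figure D4:**
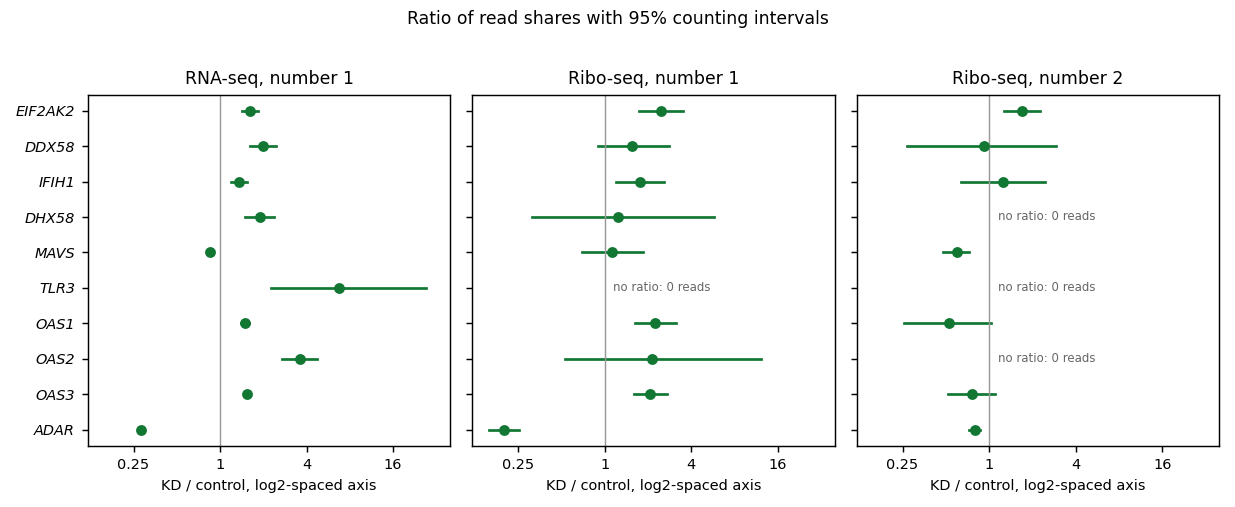
Ratio of a gene's share of reads, KD over control (horizontal axis, log2-spaced), in RNA-seq and in the Ribo-seq pairs numbered 1 and 2, for the 9 genes and ADAR, with points for the ratio and bars for the exact 95% counting interval. In RNA-seq every interval but those of MAVS and ADAR lies above 1, and in the Ribo-seq pair numbered 2 only that of EIF2AK2 does.

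The difference between the PARS-seq and the Ribo-seq effect could be tested for 7 members and was called for none of them. The contrast ranged from -0.73 for OAS1 (SE 1.75) to 0.36 for MAVS (SE 0.66), each with an adjusted p of 1.00 (limma). Of 11228 genes 0.00% were called and 207 had an unadjusted p under 0.05. The standard errors of 0.63 to 1.75 mean that differences of the size seen between single pairs could not be resolved. Ribo-seq alone also had no call among 10882 genes, and 43 had an unadjusted p under 0.05 (limma). With 2 columns against 2, the smallest two-sided p of an exact permutation test is 0.333.

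The ratio of the Ribo-seq to the RNA-seq level was high for PKR in every pair, over a low RNA-seq level. EIF2AK2 was at 2.51 RPKM in the RNA-seq control but at 44.7 and 44.4 in PARS-seq. Its Ribo-seq control levels of 10.2 and 6.09 RPKM lay above the former and below the latter. Which RNA level suits this ratio was not tested. The log2 ratio of Ribo-seq to RNA-seq RPKM of EIF2AK2 was 2.02 in the control and 2.61 after KD in the libraries numbered 1, and 1.28 and 1.33 in those numbered 2, above 91.1% to 97.6% of genes. DDX58 (2.43 and 2.08) and IFIH1 (1.69 and 2.05) were also above 91.9% of genes in number 1, but at -0.46 and -1.57 and at -1.02 and -1.13 in number 2. OAS1 was at 0.14 and 0.74 in number 1 and at -2.19 and -3.68 in number 2, where it was below all but 3.71% and 0.23% of genes. MAVS went the other way, with -2.03 and -1.62 against -0.38 and -0.90. Only 1 RNA-seq library per condition stands behind both pairs, so these ratios have no error of their own.

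Of the 7 members with a mean of at least 1 RPKM, DDX58, IFIH1, DHX58, OAS1 and OAS3 followed one another closely over the 10 columns (r of 0.891 to 0.989). After centring each assay, Pearson's r of log2(RPKM + 1) was 0.989 between DDX58 and IFIH1 and 0.983 between OAS1 and OAS3, while MAVS ran against the other 6 (-0.854 to -0.63). The 4 Ribo-seq columns held 80.8% to 97.9% of the squared deviations of these 7 genes, so that these values rest mostly on the Ribo-seq columns, where numbers 1 and 2 lay far apart. Over the 6 columns of PARS-seq and RNA-seq, r among the 5 was 0.446 to 0.903, and that of MAVS with the other 6 was -0.791 to 0.0138. The genes most like each member by this measure were ARHGDIB and KRT19 for DDX58 (0.997 each), ARHGDIB and the joint row of CARD16, CARD17 and CASP1 for IFIH1 (0.993 each), and that row and OAS3 for OAS1 (0.985 and 0.983). IFI27 and SLC39A4 came closest to OAS3 (0.991 each), NDRG1 and PHLDA2 to DHX58 (0.974 and 0.963), LATS1 and TP53BP2 to EIF2AK2 (0.983 and 0.976), and LARP1 and SPRN to MAVS (0.984 and 0.982). These are descriptions over 10 columns, several of which share a condition and an assay.

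The interferon-stimulated genes were higher after KD in RNA-seq and lower in PARS-seq by their medians. Of 34 interferon-stimulated genes, 22 were tested in RNA-seq, and 13 of them passed 1.5-fold with KD higher and 0 with KD lower, beside 4.47% and 4.66% of all genes. The 13 include ISG15, IFI6, IFI27 and IFIT3. The median change was 0.64 against -0.01 for all genes. In PARS-seq 24 were tested, 0 were called with KD higher and 6 with KD lower (BST2, HERC6, IFI44, IFIT1, RSAD2 and SP100), beside 8.06% and 7.43% of all genes, and the median was -0.31 against 0.04 for all genes. The fall of CD68 in PARS-seq stands beside these as well, and its part was not tested. In the same-numbered Ribo-seq pairs, 21 and 17 of 23 were above 0, beside 46.7% and 60.5% of all genes, with medians of 0.78 and 0.27.

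The interferon genes themselves were near 0. Of 12 listed, 8 had a row and none reached a mean of 1 RPKM. IFNB1 was at 0 in RNA-seq and Ribo-seq and at most 0.0391 RPKM in PARS-seq. Of 11 receptors and signalling genes tested in RNA-seq, 3 passed 1.5-fold with KD higher and 0 with KD lower, beside 4.47% and 4.66% of all genes. In PARS-seq 10 were tested and 1 was called with KD higher, beside 8.06% of all genes. Their median change there was 0.03 against 0.04 for all genes. The called gene was IL10RB, a receptor subunit for type III interferons. It rose in PARS-seq from 5.82 and 4.28 to 11.4 and 10.4 RPKM (log2 change 0.99, SE 0.175, adjusted p = 0.00991, limma). In RNA-seq IL10RB passed 1.5-fold with KD higher (5.29 and 8.84 RPKM). IRF9 also passed 1.5-fold in RNA-seq with KD higher.

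Between sensors and interferon stand the adaptors, kinases and transcription factors. Of 17, 16 were tested in RNA-seq, where IRF7, the factor that amplifies interferon induction, was the only one past 1.5-fold (9.13% of all genes were), with 11.1 RPKM in the control and 31.7 in the KD library. It was also at 3.29 and 10.3 in the Ribo-seq pair numbered 1, against 2.11 and 2.53 in number 2. In PARS-seq IRF7 was at 1.63 and 1.73 against 1.71 and 1.81 (log2 change 0.04, SE 0.12, adjusted p = 0.847, limma), and TRAF6 was the only one of the 16 called, where 15.5% of all genes were (3.12 and 3.72 against 5.73 and 5.48, log2 change 0.58, SE 0.15, adjusted p = 0.0341, limma). IRF3, which MAVS and TLR3 activate, was at 64.1 and 60.4 RPKM in RNA-seq.

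Of 6 genes of the oligoadenylate branch and its relatives tested in PARS-seq, 1 was called with KD higher and 2 with KD lower, beside 8.06% and 7.43% of all genes. Among them OASL and MB21D1 went in opposite directions. OASL, a synthetase relative without enzymatic activity, fell from 24.6 and 14.8 to 9.95 and 9.25 RPKM (log2 change -0.92, SE 0.23, adjusted p = 0.0332, limma), whereas RNA-seq held 52.0 and 65.7. MB21D1, the DNA sensor cGAS, rose from 5.55 and 5.07 to 9.39 and 8.81 (0.68, SE 0.15, adjusted p = 0.0221) and was also higher in the KD library of RNA-seq (6.01 and 9.48) and of both Ribo-seq pairs (8.92 and 17.4, 5.34 and 10.6).

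Of 18 genes of the PKR and eIF2 list, 3 were called with KD higher in PARS-seq and 2 with KD lower, beside 8.06% and 7.43% of all genes. DDIT3, a target of the integrated stress response, rose from 13.3 and 15.4 to 23.2 and 30.4 RPKM (0.85, SE 0.19, adjusted p = 0.0224, limma), and PPP1R15A and TARBP2 rose as well. EIF2B1 and EIF2B2, subunits of the eIF2 exchange factor, fell in PARS-seq and were the 2 genes of the list past 1.5-fold in RNA-seq, both with KD lower (41.9 and 20.8, 41.7 and 24.1). Of all genes 15.5% were called in PARS-seq in either direction, against 2 and 1 genes of the next lists. Among 11 tested regulators of the RIG-I-like receptors, TRIM65 was called with KD higher in PARS-seq and NLRX1 with KD lower. NLRX1, a mitochondrial protein that restrains MAVS, was also lower in RNA-seq (16.6 and 7.38). Of 10 other sensors and helicases DDX60 was called, with KD lower (adjusted p = 0.0498). ZBP1 was at or under 0.00581 RPKM in every column. Apart from OASL, ZBP1, IRF3, IRF7 and IFNB1, these pathway genes were chosen after their values were seen, and none of the 93 pathway genes with a mean of at least 1 RPKM was called over the 3 assays.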

How the data were processed

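The 9 members and the gene lists were chosen with earlier results of these data known. The authors aligned reads to hg19 with Bowtie2 (cutadapt is also named in the submitters' processing notes), kept unique alignments, counted reads on RefSeq transcripts and deposited RPKM values. Each deposited PARS-seq value averages both enzymes within a replicate. The authors also deposited read starts per base on UCSC transcripts, a list of whole numbers without normalization. Conditions and replicate numbers came from the labels.

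RPKM columns were compared on log2(RPKM + 1) where the gene's mean reached 1 RPKM, with limma 3.58.1 (R 4.3.3, mean trend), and called at a Benjamini-Hochberg adjusted p under 0.05 over all genes tested. RNA-seq, with 1 library per condition, had no test and a bound of 1.5-fold. Read starts per transcript were summed on the 4722 transcripts listed in all 8 libraries (88565995 to 197781370 per library), scaled to the total, and tested with limma on log2 values with 0.5 added and a minimum of 10 read starts (scaled to the median total) in 2 of the libraries. S1 control replicate 1 lists only these transcripts. Fits were tested on simulated data.

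Reads were recovered from the smallest values of small RNAs in each column: at least 92.3% of these values were whole multiples of the step within 0.03 of a read. Named were the 9 members, ADAR, 7 fixed pathway genes (2 of them are not reported here), up to 5 genes per list called over the 3 assays (there were none), and the 2 genes most like each member. Other pathway genes were chosen after their values were seen. Alternatives covered the pseudocount, the filters, the scaling, replicate blocks, leaving out each library and the bases counted. No DHX58 or OAS2 promoter and no transcript identifier of the other 8 members was used here.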

Additional observations from a re-analysis of the deposited data

Results flagged for a closer look

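For 6 members, both PARS-seq pairs were below 0 and the RNA-seq pair above 0 after KD. They were picked out because every pair of one assay moved one way and the pair of the other the opposite way. The differences were not tested, since RNA-seq has 1 library per condition. The log2 change in RNA-seq minus the mean log2 change in PARS-seq, on the log2(RPKM + 1) scale, was 1.07 for OAS1 (0.55 against -0.52) and 0.97 for DHX58 (0.57 against -0.40). It was 0.71 for OAS2, 0.67 for DDX58, 0.53 for IFIH1 and 0.44 for TLR3, and OAS2 and TLR3 have means under 1 RPKM. Of the 7 members with a mean of at least 1 RPKM, 4 had this pattern, beside 7.11% of 11370 genes. Over all genes the medians were -0.01 in RNA-seq and 0.03 and 0.04 in PARS-seq.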

How the results depend on the processing

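The PARS-seq comparison called 1728 genes as reported, 546 without a filter, 5656 with the replicate block, 3 with the spread shared with Ribo-seq, and 1154 to 2571 with 1 column left out. Same-numbered columns deviated together (r = 0.658 in PARS-seq, 0.811 in Ribo-seq, 0.462 in S1 and 0.664 in V1 read starts), but with 2 pairs the numbers are not taken as a pairing. With the replicate block EIF2AK2 (0.46, adjusted p = 0.00234) and DHX58 (-0.40, adjusted p = 8.6e-05) passed in PARS-seq by limma, and EIF2AK2 (0.67, adjusted p = 0.0277) passed over the 3 assays, which then had 819 calls. The block gave 143 calls in Ribo-seq, 1 in the difference of effects and 100 in V1 read starts. ADAR was called with the block in Ribo-seq (-1.26, adjusted p = 0.0238, limma) and over the 3 assays (-1.45, adjusted p = 0.0115, limma). Leaving out any 1 column gave 0 calls in Ribo-seq and in the difference of effects.

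Over the 3 assays the 2 calls became 16 with a pseudocount of 0.1 RPKM, 13 with rescaled columns, 0 without a filter, 0 without RNA-seq and 0 to 301 with 1 column left out, the 301 coming without Ribo-seq control replicate 2. Alternatives chosen after seeing the data gave 1712 calls (without both Ribo-seq libraries numbered 2) and 0 (without PARS-seq). Small changes that were not called turned direction. Over the 3 assays, without the Ribo-seq libraries numbered 2, MAVS was at 0.0255 and OAS1 at 0.16, and without PARS-seq OAS1 was at 0.32 and DHX58 at 0.16. In the difference of effects DHX58 was at 0.05401 with a pseudocount of 0.1. The cause was not tested.

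Leaving out 1 column in turn gave the following ranges of log2 change where the direction turned. PARS-seq ranged from -0.16 to 0.35 for MAVS and from -0.31 to 0.009825 for OAS3. Ribo-seq ranged from -0.91 to 1.41 for DDX58, -0.88 to 1.85 for IFIH1, -0.93 to 0.40 for MAVS, -1.79 to 2.20 for OAS1 and -0.98 to 1.66 for OAS3. Over the 3 assays the ranges were -0.23 to 0.48 for DDX58, -0.27 to 0.57 for IFIH1, -0.30 to 0.17 for DHX58, -0.29 to 0.12 for MAVS, -0.66 to 0.57 for OAS1 and -0.24 to 0.58 for OAS3. In the difference of effects they were -1.08 to 0.12 for EIF2AK2, -1.56 to 0.76 for DDX58, -2.02 to 0.71 for IFIH1, -1.12 to 0.42 for DHX58, -0.31 to 1.02 for MAVS, -2.72 to 1.27 for OAS1, -1.80 to 0.83 for OAS3 and -1.32 to 0.89 for ADAR. EIF2AK2 kept its direction in PARS-seq (0.30 to 0.62), Ribo-seq (0.34 to 1.54) and over the 3 assays (0.44 to 0.81).

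S1 read starts had 239 to 1833 calls and V1 read starts 76 to 776 with 1 library left out, and V1 had 1680 with all listed transcripts. EIF2AK2 then ranged from 0.12 to 0.49 in S1 and from -0.03053 to 0.18 in V1. The difference in the share of EIF2AK2 bases with more V1 read starts, -4.15 percentage points, was 0.05 against the transcript's own totals, 1.95 after thinning, -6.40 with totals that omit the most covered transcript, -6.20 without the densest window, -8.60 in the last part of the transcript and -7.55 to -0.75 with 1 replicate left out. The 1.5-fold count in RNA-seq stayed within 1.5 times of 999 under each alternative. Counting error limits the Ribo-seq values of DHX58, TLR3 and OAS2, each from 9 reads or fewer.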
